A study of Homo sapiens with 9 samples.

Results

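H3K27ac, acetylation of lysine 27 of histone H3, was compared between LNCaP cells depleted of EZH2 and control cells, across the genome and region by region. The line, LNCaP, is derived from a human prostate cancer and is widely used to study androgen-dependent growth. Control cells carried plko.1, the lentiviral vector without a knockdown sequence, and the other cells carried shEZH2, the knockdown lentivirus against EZH2. Both were grown in RPMI with 10% serum, fixed in 1% paraformaldehyde 2 to 3 days after infection and precipitated with the same H3K27ac antibody (abcam) from chromatin sheared to 200 to 500 bp. Each group was 1 library, so the 2 H3K27ac libraries, of 9 samples in the series, were compared with no replicate check and no test of the conditions. The EZH2 and H3K27me3 lists of the same 2 groups, 1 library each, served to describe where the H3K27ac regions lay. The level of EZH2 RNA or protein was not analysed here. The EZH2 lists held 23060 peaks in control and 9493 in shEZH2, called with windows of 183 and 151 bp and thresholds of 9 and 10 tags, so their numbers differ in settings as well as in library.

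H3K27ac marks active promoters and enhancers, where acetyltransferases of the p300 and CBP family place it. EZH2, the enzyme of Polycomb repressive complex 2, methylates the same lysine to H3K27me3, a mark of repressed chromatin. One lysine cannot carry both marks, and EZH2 has also been described at active genes in prostate cancer cells.

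The control list held 58134 H3K27ac regions from a library of 17438009 tags, and the shEZH2 list held 59233 regions from 22175405 tags. The authors joined windows of 150 bp in control and of 1000 bp in shEZH2, so the control regions covered 47.2 Mb and the shEZH2 regions 149 Mb. The density a window needed was 34.4 normalised tags per kb in control and 9.47 in shEZH2, a 3.63-fold difference in what could be called. Listed regions held 46.1% of the control library and 59.0% of the shEZH2 library. To set the lists side by side, the tags of each region, scaled by the authors to 10000000 per library, were spread evenly over its base pairs and summed in fixed bins of 10 kb. Of 59170 bins with a listed region, 25752 held 50 or more tags in either list and were compared. Among these, 24703 had a region in both lists, 1047 had none in control and 2 had none in shEZH2. Bins and regions are given by hg19 coordinates. No hg19 gene annotation was used here, so neither genes nor the luminal markers expected of LNCaP are reported.

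Of the bins compared, 95.9% held an H3K27ac region in both lists, while the extent of sequence called differed widely. The limit of 50 tags kept 43.5% of the bins with a listed region, and the share over all of those is not given here. The median bin listed in both held 107 control and 141 shEZH2 tags. The median log2 ratio of shEZH2 over control was 0.35, 1.28-fold (order-statistic interval 0.34 to 0.36, over bins only), with a central 50% of bins from 0.03 to 0.91. Of the 24703 bins, 5613 (22.7%) were 2-fold or more higher in shEZH2 and 156 (0.632%) were 2-fold or more lower. Relative to the median bin, 3901 bins (15.8%) were higher and 581 (2.35%) lower by that fold. Scaled to the tags in listed regions in place of the whole library, the median was -0.0029, with 3887 bins higher and 587 lower. Covered sequence differed in the same direction: a median of 1369 bp per bin was listed in control and 3551 bp in shEZH2.

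The bins that were higher in shEZH2 were weak in control and were covered far more widely in shEZH2. Their median was 25.5 tags in control and 85.2 in shEZH2, and shEZH2 covered a median of 6.07 times as many base pairs. Across classes of covered width the median log2 ratio went from -0.65 in 76 bins covered no more widely in shEZH2, through 0.09 in 6169 bins covered over 1.5 to 2 times as widely, to 2.72 in 1963 bins covered more than 8 times as widely. Across deciles of mean tags it went from 1.81 in the weakest bins to 0.01 in the strongest. When every base pair listed in shEZH2 alone was given the density that control needed for a call, 147 of the 5613 higher bins remained 2-fold higher. Over all compared bins, 326 (1.27%) were then higher by that fold, and the median log2 ratio was -0.39. At base pairs listed in both lists the median was -0.80, in 24696 bins. Both of these medians lean low by construction. The first gives sequence listed in shEZH2 alone the full density that control needed for a call. A control region removed by a filter on clonal tags could exceed that density. In the second, spreading tags evenly over a wide shEZH2 region lowers its value at the narrower control region within it. The overall shift of H3K27ac and the calling settings cannot be told apart.

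**Figure D1:**
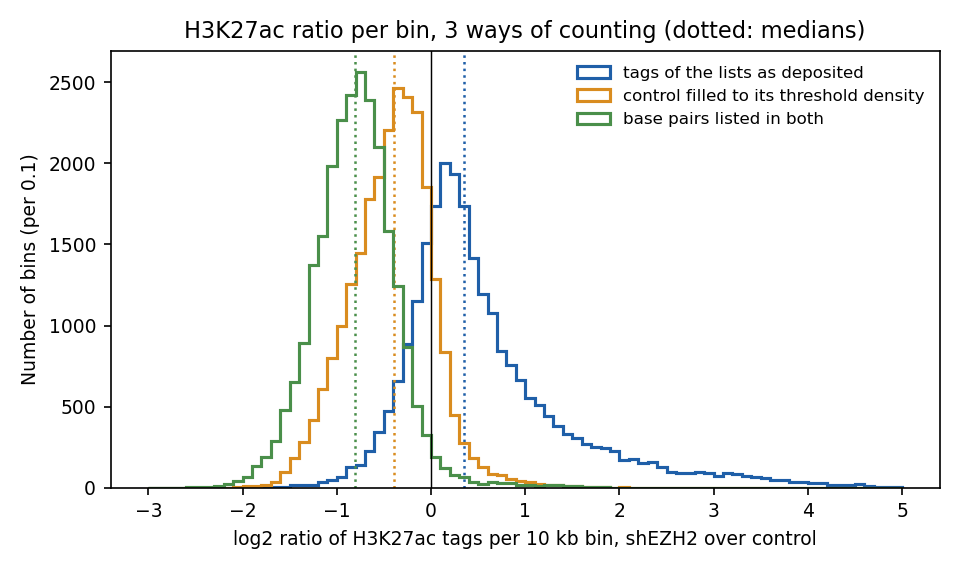
Number of 10 kb bins (vertical axis) by log2 ratio of H3K27ac tags, shEZH2 over control (horizontal axis), counted 3 ways, with dotted lines at the medians; values beyond the axis are not drawn. The median lay at 0.35 with the tags as listed, at -0.39 with control filled to its threshold density and at -0.80 at base pairs listed in both.

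**Figure D2:**
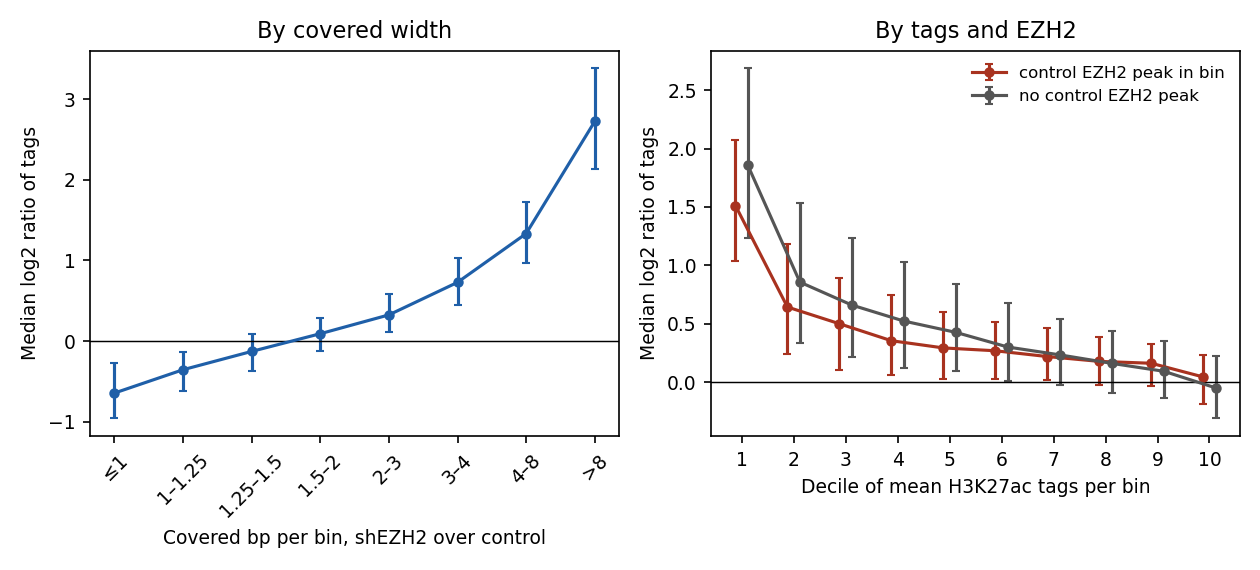
Median log2 ratio of H3K27ac tags per bin (points) with the quartiles of the bins (bars). Left, by covered base pairs in shEZH2 over control, where the median went from -0.65 to 2.72; right, by decile of mean tags, for bins with and without a control EZH2 peak, where the lines cross towards the strongest bins.

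Bins that both lists covered to a like extent had lower ratios. The choice may itself favour low ratios, since the width listed under the laxer shEZH2 calling depends on its signal. This was not tested. Covered width differed by at most 25% in 764 bins, whose medians were 397 tags in control and 326 in shEZH2. The median log2 ratio was -0.37 and 672 bins, 88.0%, were lower. Of these 764 bins, 67 (8.77%) were 2-fold or more lower and 1 (0.131%) was 2-fold or more higher. Bins with 9000 bp or more covered in both lists, 110 in number, had medians of 1452 and 963 tags and a median log2 ratio of -0.46, with 11 (10%) 2-fold lower and 1 (0.909%) 2-fold higher.

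A bin inside a long shEZH2 region takes an even share of that region's tags, so a sharp control peak can look lower in 1 bin and higher in the next. The regions of both lists were therefore also merged wherever they touched, and tags were summed over each merged region whole. Of 22376 merged regions with 50 or more tags in either list, 21929 held both. Their median log2 ratio was 0.33, with 3903 (17.8%) 2-fold or more higher and 70 (0.319%) 2-fold or more lower. In 270 merged regions whose covered width differed by at most 25%, the median was -0.27, with 216 lower by any amount. Of these, 15 (5.56%) were 2-fold or more lower and none was 2-fold higher. The same choice by width may favour low ratios here too, so these regions are no separate support for lower H3K27ac.

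The 156 bins that were 2-fold or more lower held a median of 146 tags in control and 63.5 in shEZH2. In 144 of them shEZH2 covered at least as many base pairs as control. Counted over their merged regions, 119 of the 156 were still lower and 55 still 2-fold lower, while 34 were higher and 3 lay in merged regions under 50 tags. The bin chr1:102700001-102710000 held 76.8 tags in control and 15.3 in shEZH2. Its log2 ratio was -2.33 (counting SE 0.28), and its merged region, chr1:102700086-102701359, gave the same ratio. The bin chr4:122740001-122750000 held 92.9 and 23 tags, a ratio of -2.01 (counting SE 0.23). It contained an EZH2 peak in control and none in shEZH2, as did 4795 of all 6832 bins with a control peak. The merged region chr2:10261757-10263842 held 141 tags in control and 29.3 in shEZH2, 4.82-fold lower, over 2086 and 1795 listed bp. These were sites of modest acetylation in control that stayed listed in shEZH2 at a much lower density.

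Other low bins did not carry over to their merged region. The bin chr16:85640001-85650000 held 1706 tags in control and 571 in shEZH2, a log2 ratio of -1.58, yet its merged region held 3039 and 3706 tags, a ratio of 0.29. Among the 20 bins with most control tags that were 2-fold lower, 15 lay inside a single shEZH2 region. Over their merged regions 16 of the 20 were lower, 3 by 1.5-fold or more and none by 2-fold.

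As listed, the strongest H3K27ac regions of LNCaP held similar tags in both libraries. The merged region with most tags, chrX:114958777-115006285, held 35003 in control and 33047 in shEZH2, a log2 ratio of -0.08. Its control density was 756 tags per kb, against 178 in the next region, and repeats outside contigs and gap flanks were not set apart. The next, chr22:46430303-46519190, held 13708 and 11949 tags, a ratio of -0.20. The third, chr15:89630236-89690167, held 6515 and 5380 tags, a ratio of -0.28. Outside repeat-rich sequence, 353 merged regions held 1000 or more control tags, and their median log2 ratio was -0.04, with a central 90% from -0.43 to 0.32. Of these, 3 (0.85%) were 1.5-fold or more lower, 2 (0.567%) were 1.5-fold or more higher, and none differed by 2-fold. In the 353 regions shEZH2 listed a median of 1.47 times as many base pairs as control. With control filled to its threshold density their median log2 ratio was -0.20, and 46 were higher by any amount. A limit on control tags favours regions that were high in control. With 1000 or more tags as the mean of both libraries, 368 regions had a median of 0.00, and 2 were 1.5-fold lower and 5 higher.

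Among these 353 regions, the most tags were lost in 1 stretch of chromosome 19. There, 3 neighbouring merged regions spanned 68.3 kb, chr19:51338038-51406292, with 2643 bp and 478 bp between them. The first, chr19:51338038-51365683, held 5944 tags in control and 3342 in shEZH2, a log2 ratio of -0.83 (counting SE 0.02). The second, chr19:51368327-51386424, held 2535 and 1518 tags, a ratio of -0.74 (counting SE 0.03). These 2 were lower by 1.5-fold under either limit on tags. The third, chr19:51386903-51406292, held 1541 and 1042 tags, a ratio of -0.57 (counting SE 0.04). Together they held 10020 tags in control and 5902 in shEZH2, 1.70-fold lower, although shEZH2 listed more sequence there, 65127 bp against 54854 bp. The first region contained 3 EZH2 peaks in control, the other 2 contained none, and no EZH2 peak was listed in any of the 3 regions in shEZH2. Both traits were common: 233 of the 353 regions contained a control EZH2 peak. Of the 6832 bins with a control peak that both H3K27ac lists covered, 4795 had none in shEZH2.

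**Figure D3:**
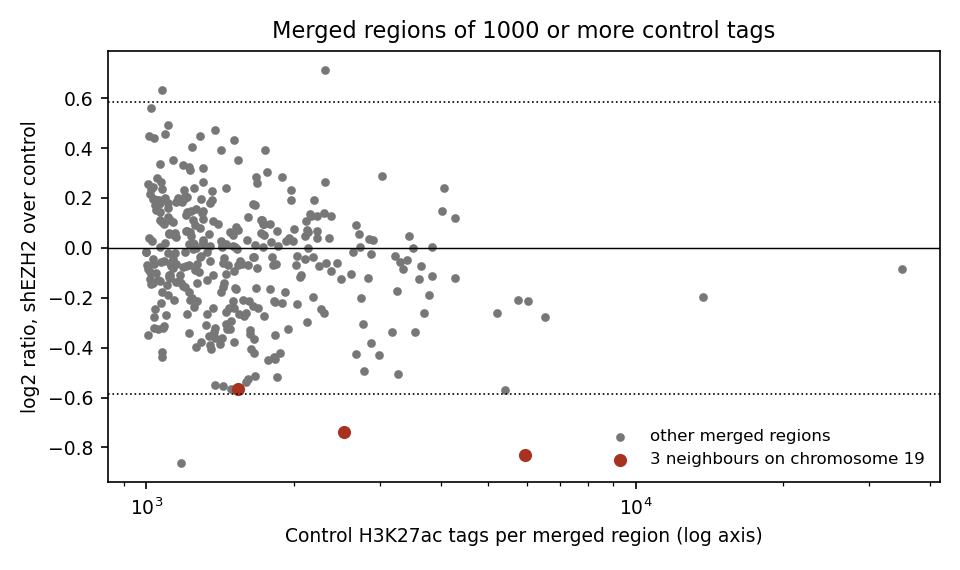
Log2 ratio of H3K27ac tags, shEZH2 over control (vertical axis), against control tags (horizontal log axis) for 353 merged regions outside repeat-rich sequence; dotted lines mark 1.5-fold. The 3 neighbouring regions of chromosome 19 lie at -0.83, -0.74 and -0.57, and the region of most tags lies at -0.08.

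Over windows of 1 Mb the same stretch stood lowest. Of 1155 windows with 8 or more compared bins, the median log2 ratio was 0.25, 68 were below 0 and none was 2-fold lower. The window chr19:51000001-52000000 held 13134 tags in control and 8809 in shEZH2, 1.49-fold lower. Its 7 bins with over 1000 control tags, 2 of which exceeded 1000 in shEZH2, had log2 ratios from -1.08 to -0.53 and held 82.1% of the window's control tags. A limit on control tags favours low ratios. Of the other 13 bins 7 were lower, with a median of -0.03 and a highest ratio of 2.48, at chr19:51400001-51410000 in the third merged region. The bin chr19:51350001-51360000 held 2480 control and 1209 shEZH2 tags. The bin chr19:51370001-51380000, fully covered in both lists, held 1744 and 839 tags. The window's place depends on how sequence listed on 1 side is counted: it ranked lowest of 1155 as listed, 37 with control filled to its threshold density and 145 at base pairs listed in both. Next lowest were chr6:27000001-28000000, with 3984 and 3120 tags, and chr11:114000001-115000000, with 7660 and 6144. In the chromosome 6 window 10 of 19 bins were lower, with a median log2 ratio of -0.28. In the chromosome 11 window 6 of 17 bins were lower, with a median of 0.51. There, 1 merged region, chr11:114016457-114055500, held 5403 tags in control and 3638 in shEZH2.

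**Figure D4:**
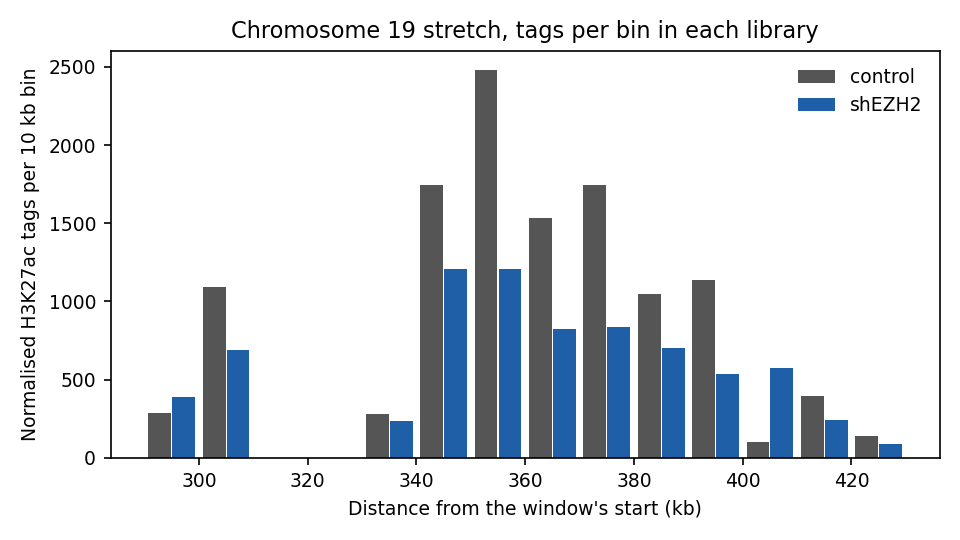
Normalised H3K27ac tags per 10 kb bin (vertical axis) by distance from the start of the 1 Mb window on chromosome 19 (horizontal axis, kb), in control and shEZH2. Control was higher in all 7 bins with over 1000 control tags, from 300 to 400 kb; equal shEZH2 values in neighbouring bins arise where 1 long region spans both.

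Other strong merged regions with low ratios lay on several chromosomes. The region chr8:6454944-6462062 held 1181 tags in control and 650 in shEZH2, a log2 ratio of -0.86 (counting SE 0.05). The region chr11:114016457-114055500 held 5403 and 3638 tags, a ratio of -0.57. A pair of neighbours, chr1:149810926-149817504 and chr1:149818587-149826259, had ratios of -0.55 and -0.57 and contained 2 and 3 EZH2 peaks in control and 1 each in shEZH2. At the other end, chr6:160767738-160828942 held 2322 and 3802 tags, a ratio of 0.71, over 34367 and 61205 bp. With control filled to its threshold density none of the 353 regions was 1.5-fold higher.

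Few merged regions stayed 2-fold higher with control filled to its threshold density. That filling leans low by construction, so it does not tell whether the gains that failed it depend on the settings. By this count, 8 merged regions (0.0358%) were 2-fold or more higher, beside 326 of all compared bins (1.27%). Of the 8 regions, 7 had no control region at all. The region chr14:31493173-31498257 held 584 tags in shEZH2, at 115 tags per kb, and none was listed in control. The region chr6:26155172-26161705 held 578 tags in shEZH2, at 88.4 per kb, and was likewise not listed in control. The region chr7:100478946-100489453 held 825 tags over 10508 bp in shEZH2 and 17.2 tags over 401 bp in control. No fold is given against an unlisted region, since its tags are unknown and not 0. Each of the 8 contained an EZH2 peak in control, 1 also in shEZH2, and none contained an H3K27me3 region in either list. Those control peaks were weak, with 6.75 to 11.3 normalised tags per region. A call needed 9 unscaled tags in a library of 13331155. Of all 441 merged regions with no control region, 25 (5.67%) contained a control EZH2 peak. Of 13080 merged regions at or above the control threshold density in shEZH2, 43.2% contained a control EZH2 peak, 97.4% contained no H3K27me3 region in either list and 16 had no control region. A filter on clonal tags had removed 94 regions from the control list and 20 from the shEZH2 list, and its part in these absences was not tested.

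The 1047 bins with no control region were otherwise weak. Their median was 66.4 tags, 845 held under 100, and in 698 the shEZH2 density was below what control needed for a call. The bin with the most tags after the one on chromosome 14, chr5:106990001-107000000, held 450.5 tags in shEZH2, but its merged region held 1222 in control and 1529 in shEZH2. The 2 bins with no shEZH2 region were both in repeat-rich sequence. The 10 highest ratios over all bins rested on a share of fewer than 3 control reads each and are given no fold. Control regions covered only 1 to 33 bp of these bins. The longest run of neighbouring bins 2-fold higher relative to the median, 6 bins at chr8:134510001-134570000, held 273 tags over 7126 bp in control and 1951 over 54932 bp in shEZH2. With control filled its log2 ratio was 0.02.

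H3K27ac bins that contained a control EZH2 peak were stronger. The direction in which their ratio differed from the others depended on how bins were chosen and counted. The 6832 bins with such a peak had a median of 204 control tags and a median log2 ratio of 0.21. The 17871 bins without one had 82.6 tags and a ratio of 0.46, and were covered more unevenly, 2.55 times as widely in shEZH2 against 1.98 times. By decile of mean tags the order turned from the eighth decile on: 0.18 with a peak and 0.16 without in the eighth, 0.16 and 0.10 in the ninth, and 0.05 and -0.05 in the strongest, of 1353 and 1118 bins. Those are ratios of tags as listed. With control filled to its threshold density, bins with a peak had the higher median in every decile. It was -0.68 with a peak and -0.84 without in the weakest, and -0.17 and -0.25 in the strongest. As listed, bins of like covered width gave -0.30 in 290 with a peak and -0.43 in 474 without. Bins with 9000 bp or more covered in both lists went the other way, with -0.59 in 32 with a peak, 21.9% of them 2-fold lower, and -0.44 in 78 without, 5.13% of them 2-fold lower. Bins 2-fold or more lower made up 0.790% of those with a peak and 0.571% of those without, beside 0.632% of all bins. Of the 70 merged regions that were 2-fold or more lower, 17 (24.3%) contained a control EZH2 peak, near the 28.5% of all 21929.

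Among the 353 strong merged regions, 233 with a control EZH2 peak had a median log2 ratio of 0.01 and 120 without one had -0.14. These groups were alike in control tags, with medians of 1441 and 1394, and in relative width, 1.49 and 1.41. In merged regions of like width the medians were -0.11 in 103 with a peak and -0.38 in 167 without, but the former held 892 control tags and the latter 315. The sign of the difference between sites with and without an EZH2 peak thus varied with how sites were chosen and counted, and it has no replicate check. Bins whose EZH2 peak was also listed in shEZH2 had much the same ratio: the median was 0.20 in 2037 bins with a peak in both lists and 0.21 in 4795 with one in control alone.

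Bins that also contained H3K27me3, the product of EZH2, had ratios near the rest. The median was 0.38 in 1033 bins with an H3K27me3 region in both lists, 0.51 in 79 with one in control alone and 0.34 in 675 with one in shEZH2 alone, beside 0.35 in 22916 with none. The H3K27me3 lists were also called with unlike settings in the 2 groups. Bins with 2-fold lower H3K27ac made up 1.45% of those with H3K27me3 in both lists, 0 of 79 with it in control alone, 1.33% with it in shEZH2 alone and 0.576% of those with none. Bins with 2-fold higher H3K27ac made up 24.2%, 24.1%, 18.1% and 22.8% in the same order. Medians by chromosome, outside repeat-rich sequence, ranged from 0.20 on chromosome 19 to 0.44 on chromosome Y.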

How the data were processed

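The submitters' processing notes name BWA 0.6.1, HOMER 4.1 and the build hg19. Each library was called alone and without input, per the file headers. The deposited signal is a tag number per region, which the authors normalised to a library of 10000000 tags. The deposited score of the caller was used only to rank regions within a list in 1 alternative. From these, tags were split by base pair into 10 kb bins, and log2 ratios were taken without pseudocount in bins of 50 or more tags. Counting SEs take scaled tags back to library depth and cover counting error only, and PCR copies are not independent molecules. Repeat-rich means unplaced contigs and 2 Mb beside each chromosome's longest gap in the lists. Repeats elsewhere were not set apart. An EZH2 peak or H3K27me3 region counted where it shared at least 1 bp.

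Bins were named by rule, outside repeat-rich sequence: the 10 with most tags in each list, the 10 highest and lowest ratios over all and like-covered bins, the 10 with most tags on 1 side only, and the 5 longest runs past 2-fold. Merged regions, 1 Mb windows, strong lower bins and regions of 1000 or more tags were added after their values were seen. Members, lists and alternatives were chosen with earlier results of these data known. Genes and sequences are not reported, since no hg19 reference was used here. The binning was checked on simulated lists. Samples were grouped by title, and 3 further samples were not analysed here. Values were computed in pandas 2.3.3 and numpy 2.4.6 under Python 3.11.15, with scipy 1.17.1 for intervals, and drawn in matplotlib 3.10.9.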

Additional observations from a re-analysis of the deposited data

How the results depend on the processing

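No paired analysis was possible because each group was 1 library. The 25752 bins compared became 44139 with 5 kb bins, 15302 with 20 kb bins, 16770 at 100 or more tags and 764 at like covered width. The median log2 ratio of 0.35 was 0.44 with 5 kb bins, 0.30 with 20 kb bins, 0.24 at 100 or more tags, 0.40 by region midpoint, 0.27 above the higher of the lists' lowest densities, 0.41 in the upper 50% by score and 0.33 over merged regions. It turned to -0.78 at base pairs listed in both (bins of 50 or more such tags), -0.37 at like width, -0.0029 scaled to tags in listed regions, -0.39 with control filled and -0.46 at 9000 or more covered bp. The 5613 higher bins became 11494 with 5 kb bins, 2126 with 20 kb bins, 2170 at 100 or more tags, 3441 in the upper 50%, 44 at base pairs listed in both, 1 at like width, 326 with control filled and 1 at 9000 or more bp. The 156 lower bins became 403, 42 and 97 with the first 3 of these, 461 by midpoint, 590 in the upper 50%, 5219 at base pairs listed in both, 67 at like width, 587 scaled to listed tags, 2864 with control filled, 11 at 9000 or more bp and 70 as merged regions. The median in bins with a control EZH2 peak minus that in bins without was -0.25. It was -0.41 with 5 kb bins, -0.12 with 20 kb bins, -0.11 at 100 or more tags, -0.21 by midpoint, -0.16 above the lowest density, -0.15 at 9000 or more bp and -0.15 over merged regions, and it turned to 0.083 at base pairs listed in both, 0.13 at like width and 0.25 with control filled. Of 384 values of 50 named bins, 84 moved. The sign turned in 16: in 12 of bins under 2-fold apart, among them chr22:46470001-46480000 from -0.98 to 1.44 by midpoint, and in 4 of bins 2-fold or more apart: chr1:154970001-154980000 to 0.092 and chr10:134220001-134230000 to 0.58 by midpoint, and chr2:189150001-189160000 to 2.67 and chr12:81770001-81780000 to 0.53 in the upper 50%. Named bins at chr17:72970001, chr18:110001, chr19:530001 and chr19:13130001 turned to between -0.07 and -0.01 when scaled to listed tags. Fewer bins enter the stricter settings by construction; the other causes were not tested. The last added settings (control filled, 9000 bp, merged regions) were chosen after seeing the data.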
